A study of Homo sapiens with 13 samples.

Results

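Intergenic regions at least 10 kb from every annotated gene (distal regions below) were examined for binding of GFP-tagged DNMT1 in MV4-11, a human acute myeloid leukaemia line. Peaks of the 10 GFP-DNMT1 libraries on chromosomes 1 to 22 and X were pooled, peaks that touched a peak of parental cells were dropped, and overlapping peaks were merged. Of the 48763 merged regions, 4648 lay at least 10 kb from every RefSeq gene of any biotype on GRCh38, which is 9.53% (95% Wilson interval 9.27 to 9.80). The remainder comprised 37390 regions that overlapped a gene and 6725 outside genes at less than 10 kb. Among the merged regions, each called in at least 1 library, distance to the nearest gene chose the distal ones. Peak strength, the number of calling libraries and the identity of the flanking genes were not used as criteria.

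All 10 libraries came from cells that carried a guide against endogenous DNMT1 (gDNMT1) and overexpressed an ectopic GFP-tagged DNMT1. The lines named NTC and UHRF1KO carried full-length GFP-DNMT1 with a non-targeting guide (gNTC) or a guide against UHRF1. The line named WT carried full-length GFP-DNMT1 without such a second guide, and the line named RFTSdel carried GFP-DNMT1 lacking the RFTS domain. Each line was grown for 7 days in DMSO or in 100 nM of GSK3685032, a DNMT1 inhibitor (DNMT1i). There was 1 library per treatment for NTC, UHRF1KO and WT, and 2 for RFTSdel. Untreated parental cells, without GFP, gave 1 library. The sample labels put WT, RFTSdel and parental cells in batch 1 and NTC and UHRF1KO in batch 2. The design text of the series gives these numbers the other way round, and those of the sample labels are used here. The labels do not state whether the RFTSdel replicates were separate cultures; their spread can thus be technical alone. Whether a line was 1 clone or a pool is not stated either. The peak lists hold no reads or expression values, so depth, loss of endogenous DNMT1, knockout of UHRF1 and the identity of the cells could not be checked from them.

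DNMT1 is the maintenance methyltransferase: it restores CpG methylation on the daughter strand behind the replication fork. UHRF1 brings it there by reading hemimethylated DNA and ubiquitinating histone H3, which the RFTS domain of DNMT1 binds. Intergenic DNA is CpG-poor, mostly methylated, and rich in repeats and in distant enhancers, and loss of its methylation can release transcription of repeats. The series' title places intergenic RNAs and viral mimicry among its subjects.

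Distal regions were shorter than the rest. Their median length was 407 bp, against 649 bp for all other regions, and their lengths ran from 213 to 4621 bp. The median distance to the nearest gene was 22.1 kb. The nearest of all lay 10005 bp from PHLDA3, 10006 bp from LOC107985581 and 10006 bp from RPL32P15, while the first 3 regions outside the limit lay 9997, 9992 and 9991 bp from a gene. There were 236 regions (5.08%) at 100 kb or more. DNA at least 10 kb from any gene made up 31.2% of the chromosome span, unassembled stretches included. It held 4.91 regions per Mb, against 21.2 per Mb elsewhere. Of 13478 intergenic gaps with room for a distal region, 2909 held at least 1, and 1920 of these held exactly 1. Another distal region lay within 5 kb of 20.9% of the 4648 and within 20 kb of 42.1%.

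Density per Mb of distal DNA varied between chromosomes. Chromosome 19, the most gene-dense, had 13.4 distal regions per Mb, followed by chromosome 17 with 9.89 and chromosome 20 with 8.96. The X chromosome had the lowest density, 1.09 per Mb, and chromosome 21 had 2.24. Short gaps were also denser than long ones. Gaps of 20 to 50 kb held 14.3 regions per Mb of distal DNA, and those of 1 Mb or more held 0.306 per Mb. The spans include unassembled stretches, whose length was not used here. Gaps of 1 Mb or more made up 176 of the 946 Mb of distal DNA and held 54 regions. They thus lower the density given for all distal DNA, also where it stands beside the gene lists below.

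Parental cells gave no signal of this kind. Of their 426 peaks, 0 lay at least 10 kb from a gene, which allows a share of up to 0.704%, and the farthest was 6789 bp away. None of the 3555 peaks removed for touching a parental peak was distal, so the removal took nothing from the distal set.

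The number of distal regions differed widely among libraries, and every DNMT1i library had fewer than the DMSO library of its line. The 2 libraries of NTC held 1686 distal regions in DMSO and 324 in DNMT1i. These are 36.3% and 6.97% of all distal regions, where 47.5% and 11.9% of all merged regions were called. UHRF1KO held 2757 in DMSO (59.3%; 65.9% of all regions) and 155 in DNMT1i (3.33%; 9.39%). WT held 846 (18.2%; 33.8%) and 280 (6.02%; 8.68%). The RFTSdel replicates held 379 and 512 in DMSO (8.15% and 11.0%; 24.7% and 28.4% of all regions). Under DNMT1i they held 182 and 324 (3.92% and 6.97%; 15.3% and 22.5%). In each of the 10 libraries the distal regions were called less often than the background of all regions.

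As a share of a library's own list, distal regions ranged from 2.44% to 8.58%. For NTC the share was 7.27% (DMSO) and 5.58% (DNMT1i), and for UHRF1KO it was 8.58% and 3.39%. WT went the other way, with 5.13% in DMSO and 6.62% in DNMT1i. RFTSdel had the lowest shares among DMSO libraries, 3.14% and 3.70%, and among DNMT1i libraries, 2.44% and 2.95%.

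**Figure D1:**
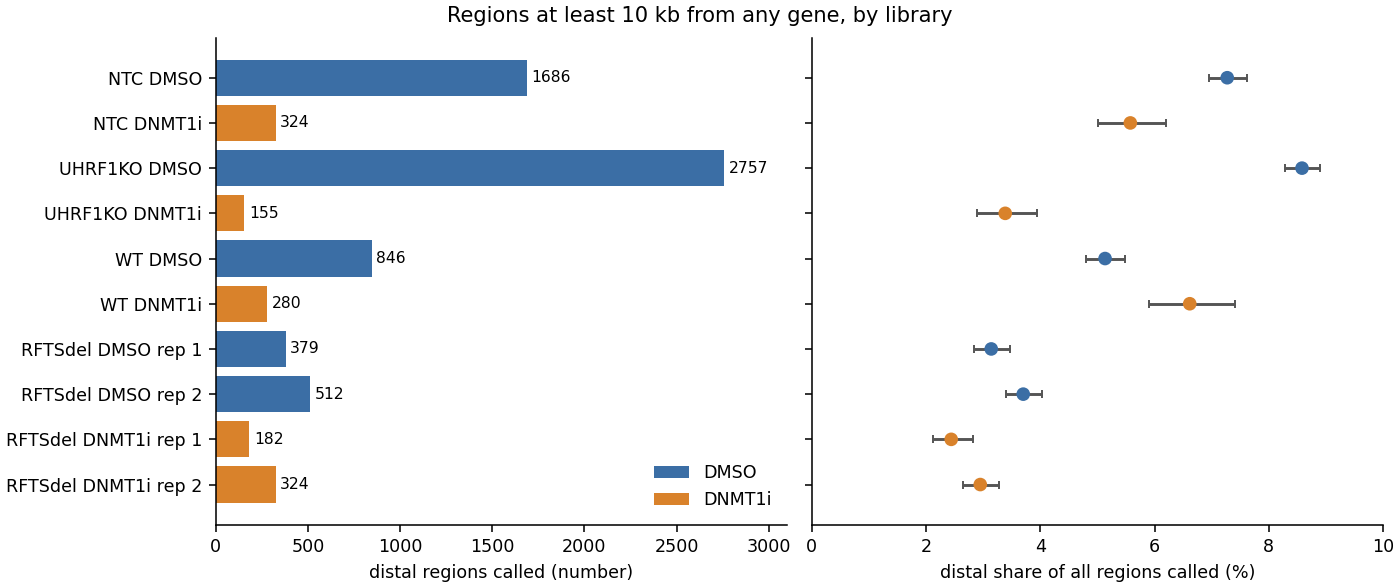
Distal regions called in each of the 10 GFP-DNMT1 libraries (left, number; right, percent of all regions called in that library, with 95% Wilson intervals that cover counting error only). DMSO is blue and DNMT1i orange; UHRF1KO DMSO has the longest bar at 2757, and WT is the line whose share is higher under DNMT1i (6.62%) than under DMSO (5.13%).

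The log2 ratio of distal region number, DNMT1i over DMSO, was −2.24 ± 1.43 (SD, n = 4 lines). The lines stood at −2.38 (NTC), −4.15 (UHRF1KO), −1.60 (WT) and −0.82 (RFTSdel, whose replicates were averaged). Over the 4 lines, a sign-flip permutation test (exact, two-sided) gave p = 0.13, the smallest it can give, and 0.146 after Benjamini-Hochberg adjustment over 7 tests. Batch 1 averaged −1.21 and batch 2 averaged −3.27. List length moved with this result. When each list was cut to its 4254 strongest peaks, the mean turned to 0.48 (exact permutation p = 0.25). The distal share in those equal lists was 3.44% in DMSO and 5.16% in DNMT1i for NTC, 3.53% and 3.30% for UHRF1KO, and 3.63% and 6.65% for WT. For RFTSdel it was 1.39% and 1.48% in DMSO and 2.08% and 2.15% in DNMT1i. With full lists the distal share differed by −1.53 ± 2.78 percentage points (SD, n = 4 lines; exact permutation p = 0.375), lower in 3 of 4 lines. The batch means were 0.38 and −3.45 points. The difference turned to 1.30 points in lists of equal length and to 0.36 with a limit of 50 kb, and it was −0.31 without UHRF1KO and −0.010 with −log10 q of at least 4. The part of sequencing depth in these numbers was not tested.

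Most distal regions were called once. Of the 4648, 3263 (70.2%) appeared in 1 library, against 48.0% of the other regions and 50.2% of all regions. UHRF1KO DMSO alone held 1690 of these single calls, which are 61.3% of its distal regions, while 38.0% of its other regions were single calls. At the other end, 68 distal regions (1.46%) were called in 7 or more libraries, against 12.1% of the other regions.

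Calls limited to DMSO were the most frequent pattern. At least 1 DMSO library and no DNMT1i library called 3753 distal regions (80.7%; 64.7% of all regions). The reverse pattern held 604 (13.0%; 10.8% of all regions), and 291 (6.26%; 24.5% of all regions) were called under both treatments. All 5 DMSO libraries called 149 distal regions (3.21%), against 16.1% of all regions, and 64 of these (1.38%; 2.93% of all regions) had no DNMT1i call. All 5 DNMT1i libraries called 12 (0.258%; 0.988% of all regions).

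The distal region called in all 10 libraries lay at chr13:19601644-19602659, 31000 bp from MPHOSPH8 and 13149 bp from the lncRNA TPTE2-AS1. MPHOSPH8 encodes a subunit of the HUSH complex, which silences retroelements. The authors' −log10 q for this region in DMSO was 5.92 (NTC), 3.44 (UHRF1KO), 7.15 (WT), 2.79 and 5.59 (RFTSdel). Under DNMT1i, in the same order, it was 2.79, 2.06, 1.31, 3.42 and 5.93. These −log10 q values, and the fold values below, are the authors' own for each peak; they rank peaks within 1 list. Where values of several lists stand side by side they are a description, and no direction is read from them.

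Of the next 9 by number of libraries, 3 were called in 9. One lay at chr7:4641472-4642525, 39770 bp from FOXK1, a forkhead transcription factor gene, and it was missing from NTC DNMT1i. Its −log10 q of 10.8 was the highest among the distal regions of UHRF1KO DMSO. Another, at chr1:26619472-26621753, lay between 2 small RNA genes with RPS6KA1, a ribosomal S6 kinase gene, 44447 bp away. The third, chr2:73177205-73177795, lay 24779 bp from NOTO, a notochord homeobox gene. Both were missing from WT DNMT1i alone. The 6 called in 8 libraries lay near MKI67, NPTX1, CHD7, SP3, ZNF648 and TMEM242. Each of these 6 had a peak in every DMSO library and in either replicate of RFTSdel DNMT1i.

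A different region led in the 3 DNMT1i libraries of full-length DNMT1. It lay at chr6:168839757-168841398, 19424 bp from the lncRNA LOC105378144 and 99318 bp from the lncRNA LOC107986550. It was the strongest distal region of all 3, with −log10 q of 12.4 in NTC, 10.5 in UHRF1KO and 15.3 in WT. The same region was called in the matching DMSO libraries at 5.84, 3.26 and 8.77, and in none of the 4 RFTSdel libraries. It was singled out after its values were seen. All 3 of these libraries called 37 distal regions (0.796%; 2.54% of all regions). Of the 37, 12 (32.4%) were in both RFTSdel DNMT1i libraries, against 39.1% for other regions and 38.9% for all. In no RFTSdel library were 17 (45.9%), against 30.2% and 30.7%.

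RFTSdel had its own leading region in every one of its 4 lists, at chr10:128209957-128212513. It is 83534 bp from MKI67, which encodes the proliferation marker Ki-67, and 73437 bp from LINC01163. Its −log10 q was 52.3 and 56.5 in RFTSdel DMSO and 36.2 and 41.6 in RFTSdel DNMT1i. It was also called in NTC, UHRF1KO and WT DMSO (4.58, 3.94 and 5.86) and in NTC DNMT1i (1.35). Among distal peaks, −log10 q of at least 10 was reached by 23 and 26 in the RFTSdel DMSO replicates and by 7 and 11 under DNMT1i. In DMSO these are 6.04% and 5.07% of the distal peaks, below the 10.9% and 10.6% of other peaks. Under DNMT1i they are 3.85% and 3.38%, above the 0.813% and 0.999% of other peaks. In each of the 6 lists of full-length DNMT1, 0 or 1 distal peak reached this value. Other peaks of those lists seldom reached it too, at 0.109% to 0.602%, against 0% to 0.637% of the distal peaks.

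In both RFTSdel DMSO replicates together, 19 distal regions reached that value, a set chosen after the values were seen. After the MKI67 region came chr17:56779480-56781368, 10545 bp from C17orf67 and 183869 bp from NOG, which encodes the BMP antagonist noggin. Its −log10 q was 36.1 and 35.8 in DMSO and 15.5 and 14.5 in DNMT1i. Next was chr2:27169588-27170575, 12614 bp from TCF23, a basic helix-loop-helix factor gene, with 31.1 and 36.7 in DMSO and 33.4 and 37.2 in DNMT1i. The other 2 of the leading 5 lay 31286 bp from MBNL2, a splicing regulator gene (chr13:97109619-97110548; 28.1 and 37.0), and 24469 bp from SPR, the sepiapterin reductase gene (chr2:72862313-72862939; 23.4 and 24.9).

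The calls of these regions in the other lists were as follows. Of the 19, all were called in UHRF1KO DMSO and in WT DMSO and 18 in NTC DMSO. Under DNMT1i, RFTSdel called 18 and 19 of them, UHRF1KO 8, NTC 2 and WT 1. The DNMT1i lists of UHRF1KO, NTC and WT called 3.33%, 6.97% and 6.02% of all distal regions and 9.39%, 11.9% and 8.68% of all merged regions. The RFTSdel replicates chose the set, so their own DMSO calls are no result. Their DNMT1i calls are not independent of that choice either. At DMSO −log10 q of 5 and more, RFTSdel replicates 1 and 2 kept 62.0% and 71.0% of distal regions. They kept 73.3% and 85.6% of other regions in that class. The RFTSdel DNMT1i lists called 3.92% and 6.97% of all distal regions and 15.3% and 22.5% of all merged regions.

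**Figure D2:**
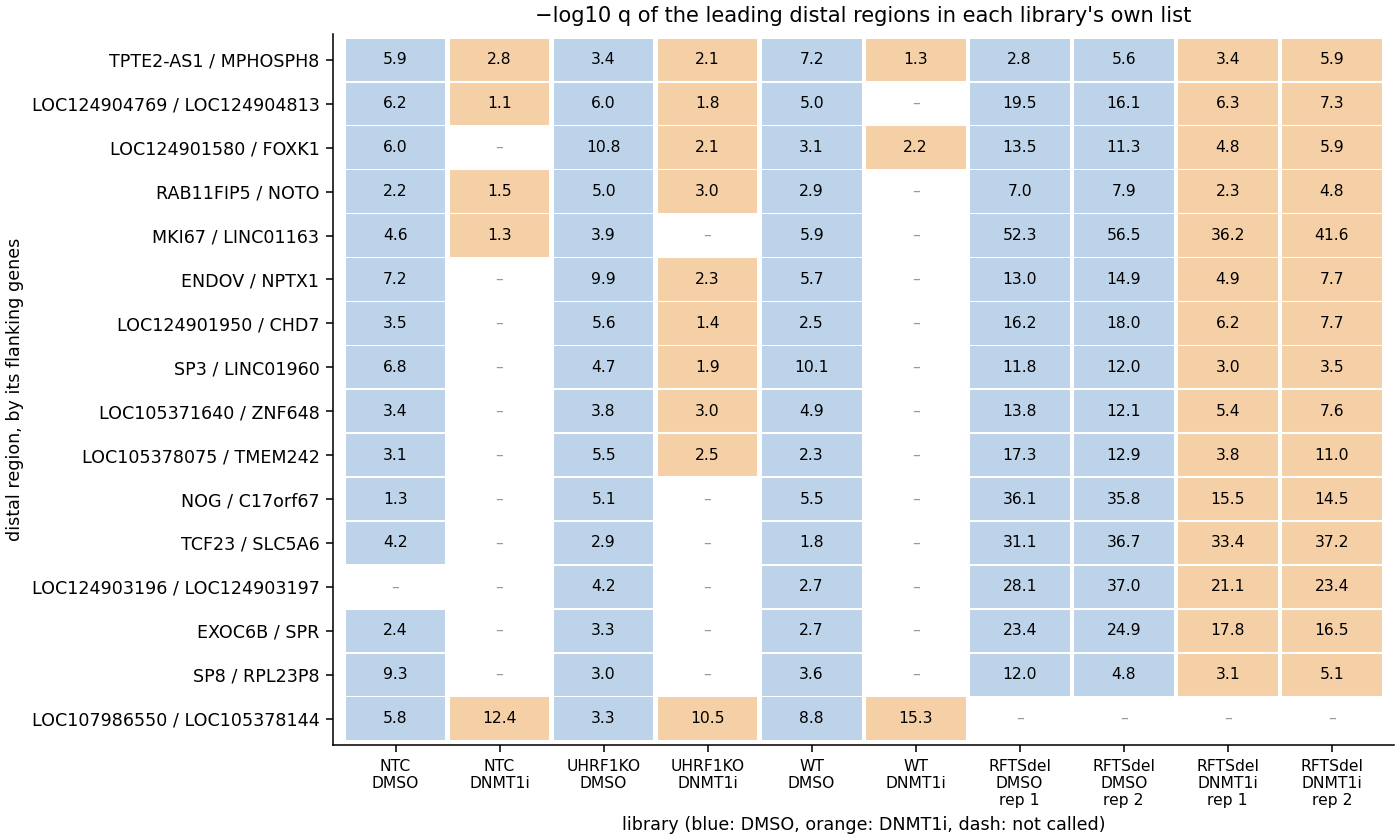
Each row is a distal region named by its flanking genes, each column a library, and each number the authors' −log10 q in that library's list (read down a column; a dash means not called). The top 10 rows are those called in the most libraries, followed by other leaders of RFTSdel and of single libraries; the bottom row (LOC107986550 / LOC105378144) is called in all 6 full-length DNMT1 libraries and in none of the 4 RFTSdel libraries.

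The next question is which distal regions of a DMSO list were still called under DNMT1i in the same line. Few were in the full-length lines. NTC kept 47 of 1686, or 2.79%, while 10.2% of its other regions and 9.67% of all its regions were kept. UHRF1KO kept 56 of 2757, or 2.03%, against 10.1% of other regions and 9.36% of all. WT kept 34 of 846, or 4.02%, against 8.37% and 8.15%. RFTSdel kept 20.3% and 24.4% of distal regions in its replicates, against 47.8% and 58.4% of other regions and 46.9% and 57.1% of all. Its libraries were matched by replicate number, which did not pair the samples. DMSO replicate 1 with DNMT1i replicate 2 gave 29.3%, against 64.9% of other regions. DMSO replicate 2 with DNMT1i replicate 1 gave 16.2%, against 42.4%. In each pair the distal share kept lay below that of the other regions. The Wilson intervals did not meet, but they cover counting error only and hold no variation between libraries.

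The difference, distal minus other, was −12.6 ± 12.2 percentage points (SD, n = 4 lines; exact two-sided sign-flip permutation p = 0.13, adjusted 0.146). It was lower in 4 of 4 lines, at −7.42, −8.02, −4.35 and −30.7 points for NTC, UHRF1KO, WT and RFTSdel. The batch means were −17.5 for batch 1 and −7.72 for batch 2. It was −6.60 without RFTSdel, −8.41 with −log10 q of at least 2, −6.47 with fold of at least 4, −5.40 when a call needed 50% of the region covered, −5.06 in lists of equal length and −0.24 with −log10 q of at least 4.

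Peak strength moved with position. The median −log10 q of distal regions differed from that of other regions of the same library by −0.41 ± 0.38 (SD, n = 4 lines; exact permutation p = 0.13). By line the −log10 q difference was −0.243 (NTC), −0.198 (UHRF1KO), −0.221 (WT) and −0.987 (RFTSdel). Fold differed by −0.119 ± 0.124 and width by −178 ± 59.5 bp (exact permutation p = 0.13 for each, lower in 4 of 4 lines). Without RFTSdel the mean was −0.221 for −log10 q and −0.057 for fold. In RFTSdel DNMT1i replicate 1 the median distal fold was the higher one, at 4.050 against 4.037. In lists of equal length the fold difference turned to 0.107 and that of −log10 q was −0.034, and with −log10 q of at least 4 the fold difference was 0.059. Classes of the DMSO −log10 q were an alternative added after seeing the data. The share kept was lower for distal regions in every class of NTC, UHRF1KO and both RFTSdel replicates. Some classes were small. At 5 and more, NTC kept 15.4% of 26 distal regions (Wilson interval 6.15 to 33.5) and 22.1% of 1093 others (19.8 to 24.7). Width was not matched, and the part of peak strength in the kept share was not tested. At −log10 q under 2, NTC kept 2.86% of 1083 distal regions and 10.2% of 10795 others. At 5 and more, UHRF1KO kept 14.1% of 71 distal regions and 35.9% of 2326 others. WT had 1 exception, at 5 and more, where 2 of 26 distal regions (7.69%) and 4.81% of 790 others were kept.

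**Figure D3:**
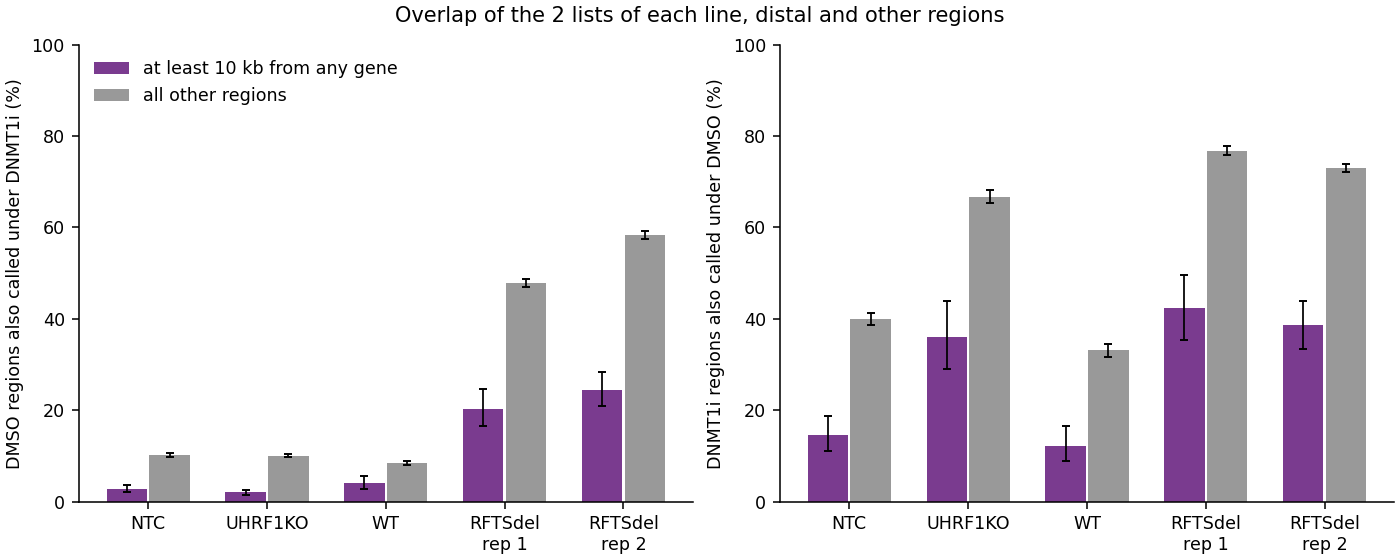
Left, percent of regions called in DMSO that were also called in DNMT1i of the same line; right, percent of DNMT1i regions also called in DMSO; purple bars are distal regions, grey bars all other regions, and error bars are 95% Wilson intervals. The purple bar is the lower of each pair, from 2.03% against 10.1% in UHRF1KO to 24.4% against 58.4% in RFTSdel replicate 2 on the left.

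Read from the DNMT1i side, distal regions were also more often without a DMSO call. Of the distal regions in NTC DNMT1i, 14.5% were called in NTC DMSO, against 40.0% of other regions. For UHRF1KO the values were 36.1% and 66.8%, and for WT 12.1% and 33.1%. RFTSdel, matched by replicate number, had 42.3% and 76.8% in replicate 1 and 38.6% and 72.9% in replicate 2. NTC and WT, which carry the same full-length protein in separate batches, had 277 and 246 distal regions called under DNMT1i only. They shared 70, or 25.3% and 28.5% of the 2 sets, less than the 35.4% and 44.1% of other regions and the 34.6% and 42.8% of all regions. Of the 70, 67 (95.7%) were in no DMSO library, against 90.6% of other regions and 90.9% of all.

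The strongest DNMT1i-only distal regions of NTC lay near POU4F2, a neuronal POU factor gene (chr4:146654986-146655621, −log10 q 4.96), near the pseudogene VN1R3 (chr16:31819341-31819900, 4.92) and between RPS27P13 and GBA3 (chr4:22634511-22635504, 4.81). The POU4F2 region was also called in UHRF1KO and WT DNMT1i and in no DMSO library. The VN1R3 region was also called in WT DMSO (1.64). In WT the leader lay 13090 bp from TRMT9B (chr8:12931230-12932583, 5.26) and was called in NTC, UHRF1KO and 1 RFTSdel DNMT1i library as well. In RFTSdel the leaders lay near GML (chr8:142816256-142816750, 5.22 and 5.69) and 25530 bp from HNRNPLL, an RNA-binding regulator of CD45 splicing (chr2:38535970-38536439, 4.51 and 6.07). The GML region was called in DMSO in the 3 other lines, and the HNRNPLL region in UHRF1KO DMSO (3.96).

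Just 5 distal regions were called in all 5 DNMT1i libraries and in no DMSO library (0.108%; 0.154% of all regions). One is the RPS27P13 and GBA3 region. Another lay 17726 bp from B3GAT1-DT (chr11:134523387-134524407), and one between the pseudogenes LONRF2P2 and FEM1AP4 (chr13:18628386-18629153). The last 2 lay in 1 gap beside the chromosome 17 centromere, at chr17:26731015-26732258 and chr17:26765652-26766805. Their −log10 q ran from 1.16 to 4.81 over the 5 regions and 5 libraries.

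Distal regions called in DMSO and not in DNMT1i of the same line included strong ones. SP8, a zinc finger developmental factor gene, had a region 10942 bp away (chr7:20797828-20798761) with −log10 q 9.35, the highest distal value in NTC DMSO, and no call in NTC DNMT1i. In WT the highest was a region 46898 bp from SP3, a ubiquitous zinc finger factor gene (chr2:174012600-174014309, 10.1), with no call in WT DNMT1i. In UHRF1KO the DMSO-only leader lay 30776 bp from UBL3 (chr13:29733113-29733595, 9.78). In RFTSdel, regions 44686 bp from PTMA, the prothymosin alpha gene (chr2:231661116-231663839, 8.52 and 10.6), and 22418 bp from ALOX5AP, a leukotriene synthesis gene (chr13:30690031-30691067, 6.86 and 8.29), were called in both DMSO replicates and neither DNMT1i replicate.

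The number ratio of DNMT1i to DMSO differed with distance from genes. For regions at 10 to 20 kb, the log2 ratio of DNMT1i to DMSO numbers was −2.88 (NTC), −4.22 (UHRF1KO), −2.11 (WT), then −1.18 and −0.84 for the RFTSdel replicates. At 50 to 100 kb it was −1.60, −3.67, −0.73, −1.46 and −0.49, so that RFTSdel replicate 1 lay below its value at 10 to 20 kb. At 100 kb and more the ratio was −1.08, −2.46, −0.05, 1.00 and 0.94. The counts behind the last class are small: 72 and 34 in NTC, 88 and 16 in UHRF1KO, 32 and 31 in WT, and 7 and 14, then 12 and 23, in RFTSdel. Leaving out gaps of 1 Mb or more, chosen after seeing the data, gave 61 and 22 in NTC, 79 and 10 in UHRF1KO. It gave 22 and 26 in WT, and 6 and 9, then 10 and 19, in RFTSdel. Regions in genes had −1.91, −2.59, −1.96, −0.65 and −0.29.

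The median distance of distal regions was longer under DNMT1i in 4 of 4 lines, by 0.28 ± 0.19 on the log2 scale (SD, n = 4; exact two-sided sign-flip permutation p = 0.13, adjusted 0.146). It was 21.0 kb in DMSO and 27.1 kb in DNMT1i for NTC, 21.2 and 22.4 kb for UHRF1KO, and 20.5 and 28.9 kb for WT. The RFTSdel replicates had 19.2 and 19.6 kb in DMSO and 21.4 and 21.97 kb in DNMT1i. Batch 1 averaged 0.33 and batch 2 averaged 0.22. Without regions in gaps of 1 Mb or more, chosen after seeing the data, the mean was 0.22 (exact permutation p = 0.25) and UHRF1KO turned to 21.2 kb in DMSO and 20.9 kb in DNMT1i.

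**Figure D4:**
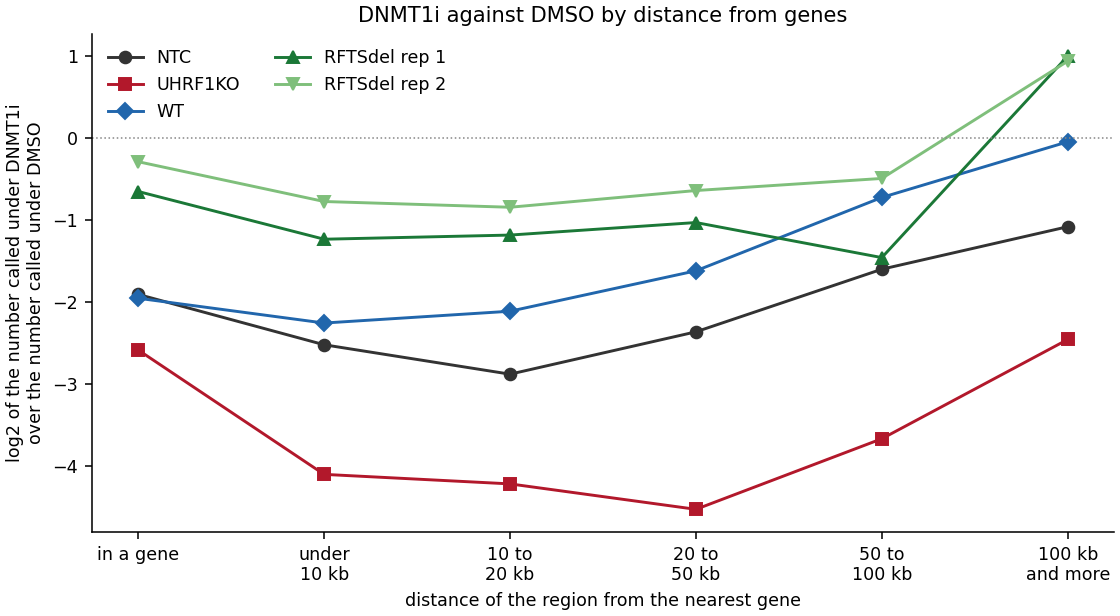
The x axis is the distance class of a region from the nearest gene and the y axis the log2 ratio of the number called under DNMT1i to the number called under DMSO, 1 line per pair of libraries and no error bars. At 100 kb and more, both RFTSdel replicates lie above 0 (1.00 and 0.94), WT is close to 0 (−0.05), and NTC (−1.08) and UHRF1KO (−2.46) stay below.

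The farthest distal regions, and 3 of the 5 longest, lay in gaps of over 1 Mb between genes. The 2 farthest, at chr1:125118185-125119852 and chr1:125085954-125088126, lay 3546297 and 3514066 bp from EMBP1 in the gap that holds the chromosome 1 centromere. Each was called in 6 libraries. Under DNMT1i, NTC gave them −log10 q of 4.88 and 2.72, UHRF1KO 3.08 and 3.51, and WT 4.61 and 4.65. In NTC and WT DMSO it was between 1.32 and 1.88, and UHRF1KO DMSO and both RFTSdel DMSO replicates did not call them. The gap with the most distal regions, 19, lay between the pseudogenes AK6P1 and ZNF970P on chromosome 12, again around a centromere, and its regions included the longest (4621 bp, chr12:34344524-34349144). The other 2 of the 5 longest lay in shorter gaps, of 111.8 kb on chromosome 6 (4292 bp, chr6:170045954-170050245) and of 33.2 kb between VAV2 and BRD3OS on chromosome 9 (3685 bp, chr9:134011171-134014855). NTC called 8 of the 19 in DMSO and 5 in DNMT1i, WT 8 and 2, UHRF1KO 3 and 1, and RFTSdel 0 in each library.

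Another 4 gaps had 10 or more distal regions. The largest of them, between the pseudogenes CYP4F44P and HSPA8P13 on chromosome 8, had 12, of which NTC called 4 in DMSO and 3 in DNMT1i. UHRF1KO and WT each called 3 of the 12 in DMSO and 0 in DNMT1i, and RFTSdel called 1 in each DMSO replicate and in DNMT1i replicate 1. The gap between RN7SL499P and PTMA on chromosome 2 had 10, of which UHRF1KO DMSO called 8, NTC DMSO 4, WT DMSO 4 and each RFTSdel DMSO replicate 2. The gap beside NEK6, a mitotic kinase gene on chromosome 9, had 10, with 9 in UHRF1KO DMSO and 1 in UHRF1KO DNMT1i. A gap between 2 non-coding genes near the end of chromosome 6 had 11, with 8 in UHRF1KO DMSO and 7 in NTC DMSO.

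Pseudogenes were the nearest gene more often under DNMT1i, a comparison chosen after its values were seen. Over all distal regions the nearest gene was a lncRNA in 42.8%, protein-coding in 32.2% and a pseudogene in 22.6%, where 28.2% of all genes are pseudogenes. For NTC the pseudogene share was 20.6% in DMSO against 32.4% in DNMT1i. UHRF1KO had 20.7% against 28.4% and WT 18.0% against 32.1%. The RFTSdel replicates had 20.6% and 18.0% in DMSO, and 26.9% and 25.3% in DNMT1i. The 28.2% counts genes and is not the share of distal DNA nearest to a pseudogene. Gaps of 1 Mb or more held 20 distal regions of NTC DMSO and 21 of NTC DNMT1i, 11 and 8 of UHRF1KO, and 16 and 12 of WT. For RFTSdel they held 2 and 3 in DMSO and 6 and 5 in DNMT1i. The part of these gaps in the pseudogene shares was not tested.

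UHRF1KO and NTC, compared within batch 2, shared 836 distal regions in DMSO. These are 30.3% of the UHRF1KO set and 49.6% of the NTC set, where the figures for other regions were 51.6% and 70.5%. The distal share was 1.31 percentage points higher in UHRF1KO in DMSO and 2.19 points lower in DNMT1i, where the lines shared 57 distal regions (36.8% and 17.6%, against 42.7% and 34.5% of other regions). The DMSO difference shrank to 0.091 points in lists of equal length and 0.116 with a limit of 50 kb, and the DNMT1i difference to −0.351 when a call needed 50% of the region covered. With 1 library each there is no replicate check. NTC DMSO lacked 1921 of the distal regions of UHRF1KO DMSO (69.7%), against 48.4% of its other regions and 50.2% of all. Of the 1921, the strongest lay 18635 bp from MIF, a cytokine gene (chr22:23913858-23914262, −log10 q 8.94). The RFTSdel DMSO replicates called it too (5.47 and 6.39). The next 2 lay 68827 bp from CHRNB3 (chr8:42627484-42628539, 6.91) and 35014 bp from KLHL3 (chr5:137581928-137582486, 6.29).

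RFTSdel and WT, compared within batch 1, shared 210 and 262 distal regions in DMSO for RFTSdel replicates 1 and 2. These are 55.4% and 51.2% of the RFTSdel sets, where other regions gave 75.9% and 71.3%, and 24.8% and 31.0% of the WT set, where they gave 56.7% and 60.7%. Under DNMT1i they shared 20 and 43. These are 11.0% and 13.3% of the RFTSdel sets (14.5% and 14.2% for other regions) and 7.14% and 15.4% of the WT set (26.7% and 38.3%). The distal share was lower in RFTSdel by 1.71 points in DMSO and 3.92 points in DNMT1i, with 1 WT library per treatment and therefore no test. With a limit of 50 kb these differences were −0.339 and −1.49 points. Of the 233 distal regions in both RFTSdel DMSO replicates, 28 (12.02%) were in neither NTC nor WT DMSO, against 4.95% of other regions and 5.10% of all. Under DNMT1i it was 79 of 103 (76.7%), the same share as for other regions and for all regions (76.7% each). The strongest of the 28 lay 11909 bp from GUCY2D, a retinal guanylate cyclase gene (chr17:7989897-7990706; 13.1 and 6.69). The second, chr12:58540487-58540929, was called in the 4 RFTSdel libraries and in no other (6.39 and 9.40 in DMSO, 9.23 and 5.24 in DNMT1i).

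The RFTSdel replicates measure how well distal calls repeat. Of the distal regions in either DMSO replicate, 35.4% were in both, against 71.6% of other regions and 70.0% of all regions. Under DNMT1i it was 25.6%, against 53.1% and 52.2%. In lists of equal length the gap to other regions was −8.15 points in DMSO and −5.70 in DNMT1i, and with −log10 q of at least 4 the DNMT1i gap turned to 12.4 points. Strength moved with agreement: at −log10 q of 5 and more in DMSO replicate 1, replicate 2 held 97.5% of 79 distal regions and 99.5% of other regions. Under 2 it held 29.1% of 117 distal regions and 57.1% of others. The single-library lines have no such check, and their distal regions had median −log10 q of 1.72 to 1.95.

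The genes nearest to distal regions were described by 8 lists, each set beside all coding genes. A distal region was assigned to its nearest protein-coding gene, and 2562 of 19974 coding genes (12.8%) had at least 1. Of the myeloid and leukaemia regulators, 22 of 47 genes (46.8%) had 66 regions, or 11.7 per Mb of distal DNA against 4.91 for all coding genes. Counting genes with any distal DNA nearest to them, this was 59.5% of 37 genes, against 28.9% of all such coding genes. The 22 genes became 14 with fold of at least 4, 10 in lists of equal length, 6 with a limit of 50 kb and 5 with −log10 q of at least 4. Lymphoid and erythroid regulators had 9 of 28 genes, or 56.3% of the 16 with distal DNA, with 27 regions (9.16 per Mb). Developmental transcription factors had 91 of 339 genes, or 38.4% of the 237 with distal DNA, with 182 regions (5.32 per Mb). This list shares 7 genes with each of the 2 lists before it. Zinc finger genes had 52 of 557 with 86 regions (4.36 per Mb), or 26.0% of the 200 with distal DNA. DNA methylation and SUMO genes had 4 of 38, or 21.1% of the 19 with distal DNA, below the 28.9% of all coding genes. Those 4 had 8 regions in a list with 0.646 Mb of distal DNA (12.4 per Mb), among them 4 near CDCA7, a partner of the remodeller HELLS.

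Neuronal adhesion and channel genes sit in long gaps and had a low density, 2.06 per Mb, with 94 of 436 genes and 193 regions. By gene they lay above all coding genes, at 21.6% against 12.8%. Of those with distal DNA it was 35.9% of 262, against 28.9%. The list was led by CSMD3 with 14 regions and the cadherin gene CDH9 with 11. Olfactory receptor genes had 10 regions at 0.446 per Mb. Viral sensing and interferon genes had 0 of 35. Of these 35 genes, 11 had any distal DNA nearest to them, and it came to 0.464 Mb.

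Of the 66 distal regions of myeloid regulators, 61 were called in DMSO only, as were 3753 of all 4648 distal regions (80.7%). NTC had 33 in DMSO and 3 in DNMT1i, UHRF1KO 44 and 1, and WT 17 and 2. The RFTSdel replicates had 9 and 11 in DMSO and 1 each in DNMT1i. Per 100 called in DMSO, DNMT1i gave 9.09 in NTC, 2.27 in UHRF1KO, 11.8 in WT and 10.0 in RFTSdel, where all distal regions gave 19.2, 5.62, 33.1 and 56.8. Neuronal adhesion and channel genes gave 42.3, 6.90, 95.8 and 104, from 52 and 22 regions (NTC), 87 and 6 (UHRF1KO), 24 and 23 (WT) and means of 13.5 and 14 (RFTSdel). Low DNMT1i counts were not particular to the myeloid list. Lymphoid and erythroid regulators had 14 in DMSO and 0 in DNMT1i in UHRF1KO, and 5 and 0 in WT. In NTC they had 7 and 4, and in RFTSdel means of 2.5 and 1.5. All 8 regions of DNA methylation and SUMO genes were called in DMSO only. No test was made on a list, and each has few regions.

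**Figure D5:**
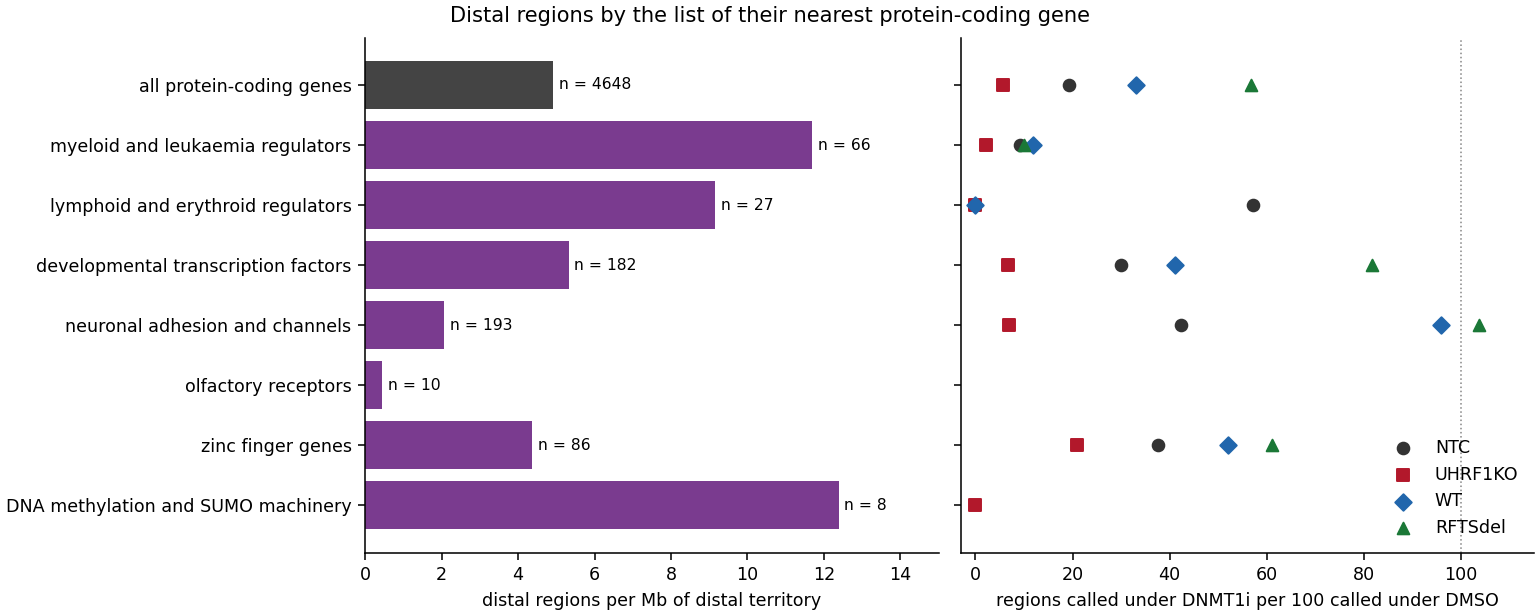
Left, distal regions per Mb of distal DNA by the list of their nearest protein-coding gene, with the number of regions; right, regions called in DNMT1i per 100 called in DMSO for each line, shown where the line had at least 5 in DMSO (the dotted line marks 100). Myeloid and leukaemia regulators have 11.7 per Mb and lie at or below 11.8 per 100 in all lines; viral sensing genes, with 0 regions, are left out.

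Within the myeloid list, ID2 had 6 distal regions, and IKZF1 and IRF8 had 5 each. ID2 encodes an inhibitor of helix-loop-helix factors, IKZF1 the factor Ikaros, and IRF8 a regulator of monocyte and dendritic cell fate. Of the ID2 regions, 2, at chr2:8534360-8536503 and chr2:8543720-8545730, were called in all 5 DMSO libraries. The first, 145553 bp from ID2, had DMSO −log10 q of 5.39 (NTC), 2.45 (UHRF1KO), 2.22 (WT), 3.48 and 4.77 (RFTSdel), with calls in NTC and UHRF1KO DNMT1i (1.13 and 1.37).

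Regions called in all 5 DMSO libraries also lay near other genes of this list, among them CEBPA, the granulocytic C/EBP-alpha gene (chr19:33266760-33269166, 30768 bp away), GATA2, a stem and progenitor factor gene (chr3:128522805-128524664, 29604 bp) and the progenitor antigen gene CD34 (chr1:207868394-207869472, 11500 bp). The CEBPA and GATA2 regions had no call in any DNMT1i library. The CD34 region kept its call in both RFTSdel DNMT1i replicates (1.88 and 4.88) and in no other DNMT1i library. A region 10879 bp from FLI1, an ETS factor gene (chr11:128824146-128825369), was called in NTC and WT DNMT1i (2.65 and 1.27) and, in DMSO, in UHRF1KO alone (1.78); it was singled out after its values were seen.

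In the lymphoid and erythroid list, BCL11B, a T-cell factor gene, PRDM1, a plasma cell factor gene, and TFRC, the transferrin receptor gene, each had 6 distal regions. For BCL11B they lay 13591 to 259246 bp away, with 3 called in UHRF1KO DMSO, 2 in NTC DMSO, 1 in WT DMSO, 1 in NTC DNMT1i and 0 in every RFTSdel library. The TFRC regions lay 11203 to 40908 bp away, 4 called in UHRF1KO DMSO and 2 in NTC DMSO, with no DNMT1i call.

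Among developmental factors, SALL3, a spalt-family gene, had 10 regions, IRX1, an Iroquois homeobox gene, had 8 and NR2F2, the COUP-TFII gene, had 8. At SALL3 NTC called 1 in DMSO and 3 in DNMT1i, WT 1 and 2, UHRF1KO 3 and 1, and RFTSdel 0 in each library. At IRX1 UHRF1KO called 6 in DMSO and 1 in DNMT1i, NTC 4 and 0, and RFTSdel replicate 1 called 2 in DMSO. The regions of IRX1 lay 217212 to 647184 bp away.

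ZNF648 led the zinc finger list with 7 regions, all of them called in UHRF1KO DMSO, 3 in NTC DMSO, 2 in WT DMSO, and 1 and 2 in the RFTSdel DMSO replicates. ZNF536 had 6, all called in NTC DMSO and 0 in any DNMT1i library. TENM3, a teneurin adhesion gene, had 10, of which 5 were in UHRF1KO DMSO and 4 in NTC DMSO, and 1 of the 10 was called in 7 libraries. OR11H1 had 3 of the 10 olfactory receptor regions, 4899039 to 5001025 bp away across the centromere on the short arm of chromosome 22.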

How the data were processed

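Anti-GFP ChIP-seq of MV4-11 cells was deposited as 11 broad peak lists, each called in 1 library; the 2 inputs were not analysed here. The submitters' processing notes name MACS2, BWA, cutadapt, deepTools and Picard with GRCh38. Tool versions, the settings and the calling control were not given in the sources used here. At each peak, the deposited fold is the authors' ratio of signal to background. The deposited −log10 values are the authors' −log10 p and −log10 q, and the deposited score follows from −log10 q. The lists hold no read counts, so depth is unknown and counting error is all that the Wilson intervals cover.

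Peaks on chromosomes 1 to 22 and X that shared 1 bp with a parental peak were dropped, the rest were merged when they shared 1 bp, and a library called a region when it had a peak there. Distance was measured to 59098 RefSeq genes of GRCh38.p14. A region's strength in a library is that of its strongest peak. Members and lists were chosen with earlier results of these data known. Named regions are the 10 called in most libraries, the 5 farthest, the 5 longest, the 3 strongest called under 1 treatment only per line, the 3 strongest of RFTSdel over wild type and of UHRF1KO over NTC, the 5 gaps with most regions, up to 4 genes a list, and regions next to the distance limit. Others, the single myeloid regions included, were chosen after their values were seen. A list member that the rule selects is not reported here.

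Lines were tested by exact two-sided sign-flip permutation over 4 lines (RFTSdel replicates averaged), with Benjamini-Hochberg adjustment over 7 tests. The planned base composition was not run, since no genome sequence was used here. Merging and distance code was tested on simulated intervals, with 0 errors in 356 regions. Alternatives kept parental peaks, raised the −log10 q or fold minimum, changed the merging, coverage and distance rules, counted protein-coding genes only, cut lists to equal length, and left out replicates, lines or gaps of 1 Mb or more. The code ran in Python 3.11.15 with pandas 2.3.3, numpy 2.4.6, matplotlib 3.10.9 and scipy 1.17.1.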

Additional observations from a re-analysis of the deposited data

Results flagged for a closer look

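The distal share of called regions was 1.48 percentage points higher in DNMT1i than in DMSO in the WT line, while it was lower in NTC, UHRF1KO and RFTSdel (−1.70, −5.20 and −0.73 points). WT drew attention because with full lists it moved opposite to the other lines, NTC included, which carries the same full-length GFP-DNMT1. In lists of equal length this contrast with NTC and RFTSdel was absent. The share in DMSO and DNMT1i was then 3.63% and 6.65% for WT, and 3.44% and 5.16% for NTC. For RFTSdel it was 1.39% and 1.48% in DMSO and 2.08% and 2.15% in DNMT1i. UHRF1KO alone was lower, with 3.53% and 3.30%. The difference between lines was not tested, and WT and NTC come from separate batches with 1 library per treatment.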

How the results depend on the processing

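Over 19 alternative settings, 181 of 225 recomputed values were counted as unchanged. For tested values direction alone decided this, since so few lines or pairs cannot give a p-value that passes a threshold. For them the count therefore holds no information on size or significance. Untested values also had to stay within the replicate spread or counting interval or, for the gene count, within 1.5 times. The cause of the change in the others was not tested. Tested values still moved far in size, the kept share from −12.6 to −0.24 and the distal share from −1.53 to −0.010 (−log10 q of at least 4), and −log10 q from −0.41 to −0.034 (equal length). In lists of equal length, the region number (0.48), the distal share (1.30) and fold (0.107) reversed. Fold also reversed with −log10 q of at least 4 (0.059), as did RFTSdel replicate agreement in DNMT1i (12.4), and the share reversed at 50 kb (0.36). Width, −log10 q and distance kept their direction. UHRF1KO minus NTC in distal share, DMSO, became 0.34 (−log10 q of at least 4), 2.20, 0.768 and 0.116 (5, 20 and 50 kb), 2.39 (protein-coding genes only) and 0.091 (equal length). In DNMT1i it became −0.351 (50% covered), −0.731 (50 kb) and −5.31 (protein-coding). RFTSdel minus WT, DMSO, became −2.78 (50% covered), −2.56, −1.03 and −0.339 (5, 20 and 50 kb), −3.76 (protein-coding) and −2.19 (equal length). In DNMT1i it became −1.81 (−log10 q of at least 4), −4.97, −2.96 and −1.49 (5, 20 and 50 kb), −9.84 (protein-coding) and −4.54 (equal length). RFTSdel replicate agreement, distal minus other, DMSO, became −31.9 and −22.1 (−log10 q of at least 2 and 4), −31.6 (fold), −41.1 and −50.3 (20 and 50 kb), −30.3 (protein-coding) and −8.15 (equal length). In DNMT1i it became −14.2 (−log10 q of at least 2), −11.2 (fold), −13.0 (50% covered), −37.3 (50 kb), −22.8 (protein-coding) and −5.70 (equal length). Myeloid genes with a distal region, 22, became 5 (−log10 q of at least 4), 14 (fold), 6 (50 kb) and 10 (equal length). Leaving out an RFTSdel replicate gave −2.30 to −2.20 for number, −1.54 to −1.53 for share and −13.4 to −11.8 for the kept share. The RFTSdel replicate numbers did not pair the samples (correlation of replicate differences 0.0026 over 18874 regions). With the replicate block (5 pairs), number was −1.97 and the kept share −16.2 (exact permutation p = 0.0625, the smallest 5 pairs allow). The distal share was −1.37 and distance 0.25. The RFTSdel lists share their line, so the pairs are not independent.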
